A study of Mus musculus with 18 samples.

Results

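The genes followed here are Bax, Bak1, Bcl2l1, Mcl1, Vdac1, Vdac2, Vdac3, Ppif, Pnpt1 and Supv3l1, 10 of the 57180 genes in the count matrix, taken by gene name across all libraries because their products form, guard or border the routes by which nucleic acids leave mitochondria. Each name matched 1 row, and all 10 were among the 14263 genes with enough counts to be tested. RNA came from wild-type L929 cells, a line of mouse fibroblasts, in 6 groups of 3 independent cultures. Mock cells, labelled DMSO, received neither agent nor aspartate. AOA cells received aminooxyacetic acid, an inhibitor of aminotransferases that lowers cellular aspartate, at 0.5 mM as a pretreatment of 1 h, and AOA+Asp cells received AOA with 20 mM aspartate. HT-DNA cells were transfected with herring testis DNA, which activates the DNA sensor cGAS in the cytosol, at 0.5 μg/ml for 6 h. HT-DNA+AOA and HT-DNA+AOA+Asp cells received the same DNA together with AOA, or with AOA and aspartate. No group received aspartate alone, the labels do not say whether cells without HT-DNA received the transfection reagent, and all libraries stand for 1 cell line.

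BAX and BAK are the executioners of the BCL2 family, which oligomerise in the outer mitochondrial membrane and open it during apoptosis, while BCL-XL (from Bcl2l1) and MCL1 hold them in check. The VDAC proteins are the channels through which metabolites cross the outer membrane, and when several of them assemble, pieces of the mitochondrial genome can pass. Cyclophilin D (from Ppif) promotes opening of the permeability transition pore of the inner membrane, and PNPase (from Pnpt1) and SUV3 (from Supv3l1) degrade mitochondrial RNA, which removes double-stranded RNA. All these proteins also act in healthy cells, and what follows are mRNA levels, which say nothing of protein, oligomers or release.

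Values are CPM, the estimated read counts scaled to a fixed library size after TMM normalisation. Library totals ran from 17901605 to 24057343 counts, and the lowest count of any of the 10 genes in any library was 754 (Supv3l1). Of 10 fibroblast markers, 8 were at 1 CPM or more in every library, while Thy1 was below 1 CPM and Lox was at 0 in all libraries. Markers of leukocytes, epithelium and endothelium were at or near 0, with Lyz2 the highest at up to 1.14 CPM. Replicates differed most in HT-DNA+AOA, where the chi-square of 2 libraries over its degrees of freedom was 16.6 to 60.8, against 2.69 to 12.1 in the other groups, so values of that group are given by library. In these bulk samples, a lower level in all cells and a loss of the mRNA from some of them cannot be told apart.

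Per kilobase of the principal transcript, Vdac1 was the most abundant of the 10 mRNAs in Mock at 243 ± 4.97 CPM per kb (SD, n = 3), and Mcl1 was next at 158 ± 1.79. Vdac2 (145 ± 4.32), Vdac3 (128 ± 1.74) and Bax (115.5 ± 7.50) followed, then Ppif at 76.3 ± 1.16, Bcl2l1 at 54.1 ± 0.930 and Bak1 at 48.4 ± 1.64. Pnpt1 at 21.4 ± 1.04 and Supv3l1 at 14.0 ± 0.474 were the scarcest. The guard Mcl1 was thus more abundant than either executioner on this scale. With the union of all exons as length, Vdac1 and Mcl1 stayed first and Pnpt1 and Supv3l1 last, while the order of the 6 genes between them changed.

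**Figure D1:**
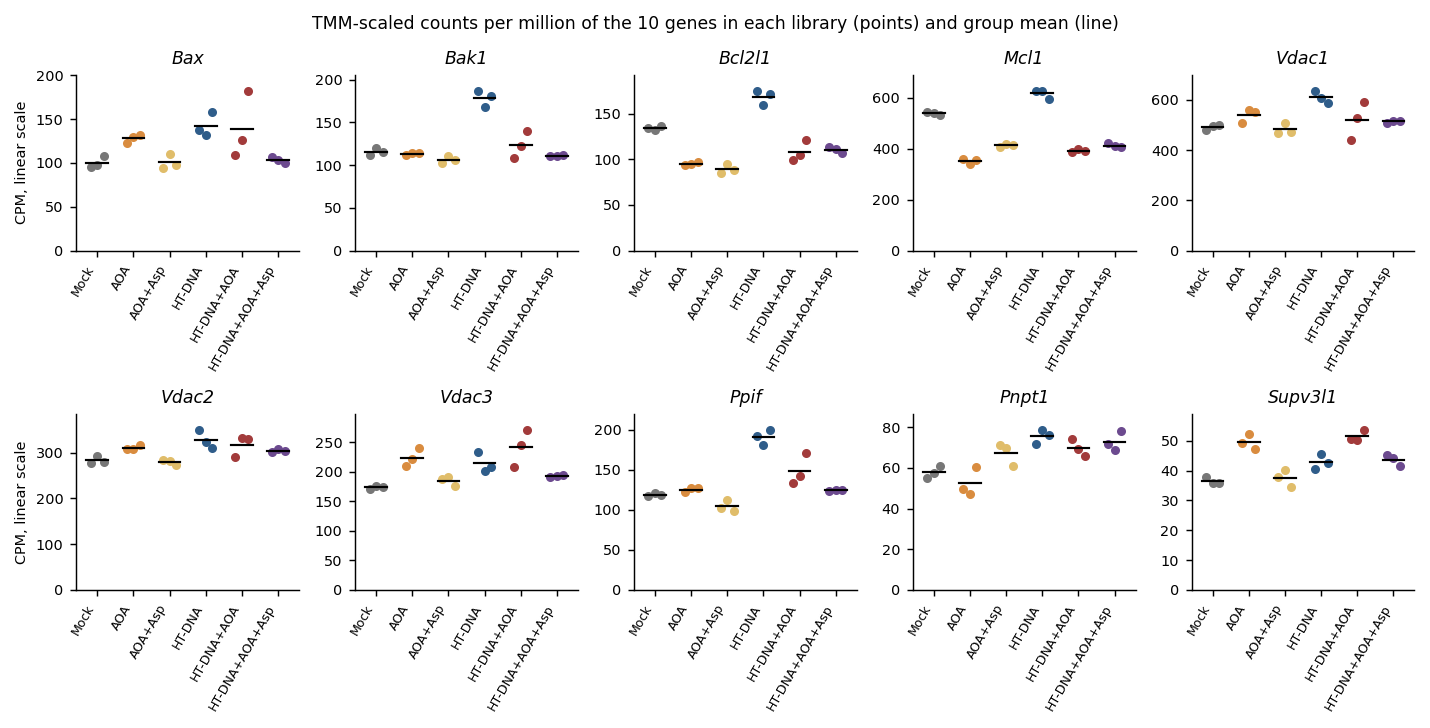
TMM-scaled CPM on linear axes from 0 for each of the 10 genes, with 1 point per library and a line at the mean of each group. HT-DNA libraries lie above all Mock libraries for every gene, Mcl1 and Bcl2l1 are lower in all 4 groups that received AOA, and the points of HT-DNA+AOA spread widely for Bax (109 to 183 CPM).

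The first comparison asks what AOA does to these mRNAs in cells without added DNA. AOA raised Bax, Vdac3 and Supv3l1 and lowered Bcl2l1 and Mcl1, so 5 of 10 were called (edgeR quasi-likelihood test, Benjamini-Hochberg adjusted p under 0.05 over all genes), against 45.7% of all genes. With library totals in place of TMM the median of all genes moved by -0.13, Bax was no longer called, and Bak1 and Pnpt1 were called lower. The second asks what aspartate reverses. With aspartate added to AOA, Mcl1 and Pnpt1 rose and Bax, Vdac3, Ppif and Supv3l1 fell, 6 of 10 against 46.3% of all genes. AOA+Asp still differed from Mock for 2 genes, Bcl2l1 and Mcl1, both lower (all genes, 3.95% called lower). With the correction for GC content and length given below, Bax was also called higher than in Mock (0.15, adjusted p = 0.0332). Ppif was called lower with library totals (-0.23, adjusted p = 0.0439). When only the libraries compared were fitted, Ppif was called lower (-0.19, adjusted p = 0.0351) and Pnpt1 higher (0.21, adjusted p = 0.034). These comparisons share libraries with each other, and so do those below.

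Transfected DNA alone raised all 10 genes with TMM scaling (Bax changed sign with the GC and length correction given below), by 0.20 (Mcl1) to 0.69 (Ppif) on the log2 scale, with no overlap between HT-DNA and Mock libraries for any of them. Of all genes, 24.2% were called higher and 61.3% had groups that did not overlap. The median log2 fold change was 0.32 over the 10 genes and -0.0076 over all genes. With library totals in place of TMM the median of all genes moved by -0.11, and Mcl1, Vdac2 and Supv3l1 were no longer called, and with no filter on low counts Mcl1 and Supv3l1 were not. With a correction that removed each library's trend over GC content and transcript length, Bax and Bcl2l1 were not.

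AOA added to HT-DNA lowered Bak1, Bcl2l1, Mcl1, Vdac1 and Ppif and raised Supv3l1, 6 of 10 against 45.4% of all genes. When only the libraries compared were fitted, 4 were called, without Vdac1 and Supv3l1, and with the GC and length correction 9, with Bax higher and Vdac2 and Pnpt1 lower. Aspartate on top lowered Bax, Vdac3, Ppif and Supv3l1 and raised none, 4 of 10 against 23.9% of all genes called lower, but 1 of 10 when only the libraries compared were fitted. With the GC and length correction Bax was not called there, and Bcl2l1 and Vdac1 were called higher. With library totals Mcl1 was called higher, and Ppif and Supv3l1 were not called. Against HT-DNA alone, HT-DNA+AOA+Asp was lower for Bax, Bak1, Bcl2l1, Mcl1, Vdac1 and Ppif, 6 of 10 against 23.5% called lower. With the GC and length correction Bax was called higher in this comparison and Vdac1 was not called, while Vdac2, Vdac3 and Pnpt1 were called lower. Fewer of the 10 were called for HT-DNA when AOA was present, and the difference is tested below as an interaction. HT-DNA+AOA exceeded AOA for Ppif and Pnpt1 only among the 10, against 6.46% of all genes called higher, but for none of the 10 when only the libraries compared were fitted, and HT-DNA+AOA+Asp exceeded AOA+Asp for Bcl2l1 alone, against 1.93% called higher.

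Bax, the executioner that moves from the cytosol to mitochondria, was at 95.3, 97.6 and 107.5 CPM in the Mock libraries, at 123, 129.5 and 132 with AOA and at 94.3, 110.3 and 97.8 with AOA and aspartate. The AOA libraries were above all others of this set, and AOA+Asp overlapped Mock. Its log2 fold change with AOA was 0.35 ± 0.13, adjusted p = 0.0326 (± SE throughout), and adding aspartate changed it by -0.34 ± 0.13, adjusted p = 0.0372. Both calls were near the threshold, each lost when any of 4 of the 6 libraries was left out (adjusted p up to 0.103 and 0.124), and 0.133 and 0.0805 with library totals. With GC content and transcript length corrected for, the rise with AOA was 0.24, adjusted p = 0.000197, and the fall with aspartate was -0.083, adjusted p = 0.143. Bax in AOA+Asp was then called higher than in Mock (0.15, adjusted p = 0.0332).

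With HT-DNA, Bax was at 137, 132 and 158 CPM, and with HT-DNA+AOA at 109, 126 and 183. Replicate 3 of HT-DNA+AOA was the highest of all 18 libraries and replicate 1 lay near Mock, so that the group overlapped both HT-DNA and AOA. The log2 fold change of Bax was 0.51 ± 0.13, adjusted p = 0.00388 for HT-DNA and -0.036 ± 0.13, adjusted p = 0.845 for HT-DNA+AOA over HT-DNA. Without replicate 3 the latter was -0.28, adjusted p = 0.00945. Bax has the most GC-rich transcript of the 10 (63.6%), and with the GC and length correction it did not rise with HT-DNA (-0.065, adjusted p = 0.267) and was higher in HT-DNA+AOA than in HT-DNA (0.28, adjusted p = 3.43e-05). HT-DNA+AOA+Asp brought it to 107, 103 and 100.3 CPM, within the range of Mock and below all HT-DNA libraries (-0.46 ± 0.13, adjusted p = 0.00786, but 0.18, adjusted p = 0.00511, with that correction). Against HT-DNA+AOA the difference was -0.43 ± 0.13, adjusted p = 0.0120, and without replicate 3 of HT-DNA+AOA it was -0.18, adjusted p = 0.102. The GC and length correction gave -0.099, adjusted p = 0.0802, for this difference. Gm45808 overlaps Bax on the same strand and shares 9.89% of its 31-base sequences.

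Bak1, the executioner that resides in the outer membrane, was one of the genes that HT-DNA raised most and that AOA brought back. It was at 112, 119.7 and 115 CPM in Mock and at 187, 168 and 181 with HT-DNA, which is 1.55-fold (0.63 ± 0.075, adjusted p = 6.43e-06). With HT-DNA+AOA it was at 108, 122 and 139.5, and with HT-DNA+AOA+Asp at 110.2, 110.2 and 112. Every library of these groups lay below every HT-DNA library, HT-DNA+AOA overlapped Mock, and HT-DNA+AOA+Asp reached no higher than the lowest Mock library. The fall was -0.54 ± 0.076, adjusted p = 9.77e-06 with AOA and -0.69 ± 0.076, adjusted p = 5.34e-06 with AOA and aspartate. All 3 changes stayed called and were smaller with the GC and length correction, 0.31, adjusted p = 7.26e-06, for HT-DNA, -0.31, adjusted p = 2.40e-06, for AOA and -0.31, adjusted p = 1.02e-05, for AOA and aspartate. Without HT-DNA, Bak1 differed little, at 113 ± 1.59 CPM (SD, n = 3) with AOA and 106 ± 4.02 with AOA+Asp against 116 ± 3.92 in Mock (adjusted p = 0.759 and 0.350). Ggnbp1 overlaps Bak1 on the opposite strand and shares 20.4% of its 31-base sequences, and 16 of 18 Bak1 values were not whole numbers.

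The guards fell with AOA in both settings, and aspartate raised Mcl1 but not Bcl2l1 in cells without HT-DNA. Mcl1, a short-lived guard that binds BAK, was at 544, 539.5 and 532 CPM in Mock and 361, 340.3 and 355.5 with AOA, 0.654-fold (-0.61 ± 0.053, adjusted p = 3.62e-08). Aspartate lifted it to 408, 420 and 415 CPM (0.23 ± 0.052, adjusted p = 0.00132), above all AOA libraries and below all Mock libraries (-0.38 ± 0.052, adjusted p = 0.000153). With HT-DNA it was at 627, 628.5 and 597 CPM, the highest 3 values of the 18, and with HT-DNA+AOA at 387, 397.5 and 389.5 (-0.66 ± 0.053, adjusted p = 8.82e-09). In HT-DNA+AOA+Asp it was at 421, 410.3 and 405 CPM, just above HT-DNA+AOA without overlap, a difference that was not called (0.075 ± 0.052, adjusted p = 0.249), but was with library totals (0.17, adjusted p = 0.0117). The order of the groups was therefore HT-DNA, Mock, a pair that overlapped (AOA+Asp and HT-DNA+AOA+Asp), HT-DNA+AOA and AOA. The rise with HT-DNA was the smallest of the 10 with TMM scaling (0.20 ± 0.052, adjusted p = 0.00486, and 0.30, adjusted p = 9.66e-06, with the GC and length correction).

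Bcl2l1, which encodes the guard BCL-XL, was at 135, 132 and 137 CPM in Mock, 94.1, 94.8 and 97.6 with AOA and 85.2, 94.7 and 88.4 with AOA+Asp. Both treated groups were below all Mock libraries and overlapped each other. The fall was -0.50 ± 0.072, adjusted p = 1.77e-05 with AOA and -0.59 ± 0.072, adjusted p = 3.48e-05 with AOA+Asp, and the change with aspartate was -0.094 ± 0.072, adjusted p = 0.297. HT-DNA raised it to 176, 159 and 172 CPM (0.33 ± 0.071, adjusted p = 0.00122, and 0.049, adjusted p = 0.336, with the GC and length correction). HT-DNA+AOA lowered it to 99.4, 104 and 122 (-0.64 ± 0.072, adjusted p = 6.38e-07) and HT-DNA+AOA+Asp held it at 114, 112 and 107 (-0.61 ± 0.071, adjusted p = 9.38e-06), and these groups overlapped each other. It was the gene with the widest span of group means, 0.92 on the log2 scale, and the 1 gene of the 10 that was higher in HT-DNA+AOA+Asp than in AOA+Asp (0.31 ± 0.072, adjusted p = 0.0192), a call lost when any of 4 libraries was left out in turn (adjusted p up to 0.102).

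Because Bcl2l1 and Mcl1 fell together with AOA, the stretches before their start sites are shown, from RefSeq's promoter table (GRCm38.p6), which holds 11 windows of 250 bases for 8 of the 10 genes and none for Vdac2 and Vdac3. Capitals mark matches on either strand to any of 7 short motifs. The first is a pair of GAAA with 2 bases between them, the core of the interferon-stimulated response element, and the second is the same pair with 1 base between. The others are the amino acid response element core, which is TGATG with an AA after 1 further base, an E-box spelled CACGTG, the CCAAT box, the Sp1 box spelled GGGCGG and the ETS core spelled CGGAAG. The Bcl2l1 window is chr2:152831729-152831978 on the minus strand, the outermost of its 3 starts, and the Mcl1 window is chr3:95658471-95658720 on the plus strand.
Bcl2l1: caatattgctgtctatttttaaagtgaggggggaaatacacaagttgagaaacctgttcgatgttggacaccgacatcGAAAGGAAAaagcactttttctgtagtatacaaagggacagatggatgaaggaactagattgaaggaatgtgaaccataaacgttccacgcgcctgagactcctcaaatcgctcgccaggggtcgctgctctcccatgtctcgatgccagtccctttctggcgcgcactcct
Mcl1: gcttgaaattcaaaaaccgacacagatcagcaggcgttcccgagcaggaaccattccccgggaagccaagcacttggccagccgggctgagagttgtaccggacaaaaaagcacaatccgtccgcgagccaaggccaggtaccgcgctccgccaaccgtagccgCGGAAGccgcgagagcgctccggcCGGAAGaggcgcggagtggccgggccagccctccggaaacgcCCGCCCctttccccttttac
Bcl2l1 holds the GAAA pair with 1 base between, found in 2.68% of all 32851 windows. Mcl1 holds CGGAAG at 2 places and GGGCGG on the other strand, which 13.6% and 32.7% of windows hold. The 2 windows shown share no motif, but another Bcl2l1 window, not shown, holds CGGAAG 103 bases before its start. None of the 11 windows holds the pair with 2 bases between (2.98% of all windows) or the amino acid response element core (3.45%).

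The balance of executioner and guard mRNA was read from the ratio of counts within a library, which a scaling factor per library cannot change but a correction per gene can. Bax over Mcl1 was 0.186 ± 0.0142 in Mock (SD, n = 3), 0.364 ± 0.0210 with AOA and 0.243 ± 0.017 with AOA+Asp, and the 3 groups did not overlap. With HT-DNA it was 0.231 ± 0.0295, with HT-DNA+AOA 0.355 ± 0.09999 and with HT-DNA+AOA+Asp 0.251 ± 0.00301. HT-DNA+AOA was above HT-DNA in every library but spread as Bax did. Bax over Bcl2l1 rose from 0.742 ± 0.0394 in Mock to 1.34 ± 0.0315 with AOA, and AOA+Asp left it at 1.13 ± 0.0342. Bak1 over Mcl1 was 0.215 ± 0.00825 in Mock, 0.321 ± 0.0137 with AOA and 0.290 ± 0.0190 with HT-DNA, again without overlap. It was 0.255 ± 0.00599 with AOA+Asp, 0.314 ± 0.0404 with HT-DNA+AOA and 0.269 ± 0.00728 with HT-DNA+AOA+Asp. For this ratio HT-DNA+AOA overlapped HT-DNA. Without HT-DNA, Bak1 over Bcl2l1 was 0.858 ± 0.0403 in Mock, 1.184 ± 0.0191 with AOA and 1.183 ± 0.0189 with AOA+Asp, so aspartate did not lower it. With the GC and length correction the log2 fold changes with HT-DNA were -0.065 for Bax, 0.31 for Bak1 and 0.30 for Mcl1. The higher ratios over Mcl1 with HT-DNA were therefore not seen under it. These ratios are of counts, not of molecules, since the transcripts differ in length, and they were not tested.

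**Figure D2:**
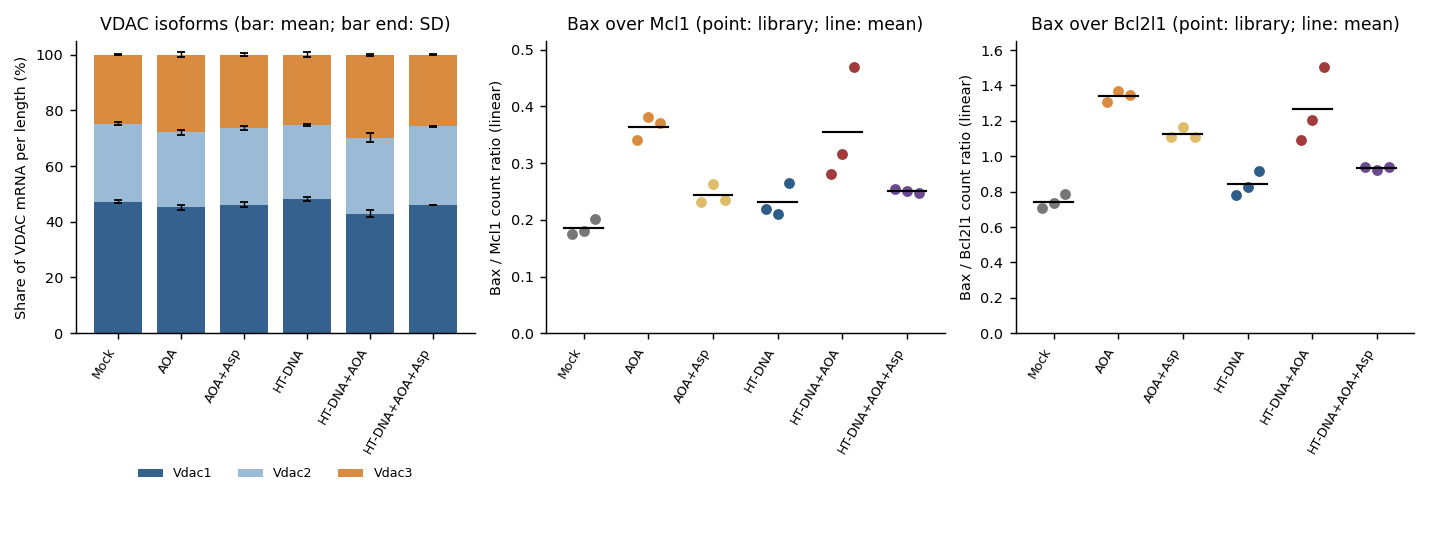
Share of the VDAC mRNA per length held by each isoform (left, bars stacked to 100%, SD of 3 libraries at each bar end) and the count ratios Bax over Mcl1 and Bax over Bcl2l1 on linear axes from 0 (points, libraries; lines, means). Bax over Mcl1 is 0.186 ± 0.0142 in Mock and 0.364 ± 0.0210 with AOA, and 1 library of HT-DNA+AOA stands above the other two of its group in both ratios.

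With TMM scaling alone, the VDAC genes had narrower spans of group means (0.23 to 0.47 on the log2 scale) than the 4 BCL2 family genes (0.50 to 0.92). With the GC and length correction Vdac3 changed more with HT-DNA (0.56) than Bax (-0.065) or Bak1 (0.31). That correction used the longest transcript of each gene, for Vdac3 4174 bases against 1354 in the principal transcript. Vdac1, the main isoform, was at 481, 495 and 501 CPM in Mock, 507, 558 and 550.1 with AOA and 469, 509 and 471 with AOA+Asp, and neither difference was called (adjusted p = 0.204 for AOA). HT-DNA raised it to 637, 607 and 588 CPM (0.31 ± 0.081, adjusted p = 0.00448). In HT-DNA+AOA it was at 440, 526 and 592, from below Mock to within HT-DNA, and in HT-DNA+AOA+Asp at 509, 518 and 517. Both were called lower than HT-DNA (-0.23 ± 0.081, adjusted p = 0.025, and -0.25 ± 0.081, adjusted p = 0.019), the first despite the overlap. The first call was lost without replicate 1 or 2 of HT-DNA or replicate 1 of HT-DNA+AOA (adjusted p up to 0.127), and the second without replicate 1 of HT-DNA or of HT-DNA+AOA+Asp (up to 0.0772). With the GC and length correction the rise with HT-DNA was 0.15, adjusted p = 0.0162. Under it the first difference was -0.26, adjusted p = 8.98e-05, and the second was not called (-0.12, adjusted p = 0.0547).

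Vdac2, the isoform known for holding BAK in the membrane, was at 277, 292.5 and 279.6 CPM in Mock, 308, 307 and 316.5 with AOA and 284, 282 and 273.5 with AOA+Asp. AOA lay above both others without overlap, yet the difference from Mock was not called (0.13 ± 0.063, adjusted p = 0.0879). HT-DNA brought Vdac2 to 349.8, 324 and 310.4 CPM (0.21 ± 0.063, adjusted p = 0.00928), with HT-DNA+AOA at 290.3, 331 and 329 and HT-DNA+AOA+Asp at 301, 308 and 303. Both were called lower than HT-DNA with the GC and length correction (-0.22, adjusted p = 0.00156, and -0.20, adjusted p = 0.00569). It had the narrowest span of group means of the 10, 0.23 on the log2 scale. Gm7832 shares 7.22% of the 31-base sequences of Vdac2, and Comtd1 overlaps Vdac2 on the opposite strand. Of its 18 values, 7 were not whole numbers.

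Vdac3, the least abundant VDAC, was the only 1 of the 3 that AOA raised by the test. It was at 171, 176 and 173 CPM in Mock, 209, 220.5 and 240.3 with AOA (0.37 ± 0.083, adjusted p = 0.00151) and 187, 192 and 175 with AOA+Asp (-0.28 ± 0.083, adjusted p = 0.0113). AOA was above both, and AOA+Asp overlapped Mock. The fall with aspartate missed the threshold without replicate 3 of either group (adjusted p up to 0.0629). With HT-DNA it was at 234, 202 and 208.5 CPM (0.31 ± 0.083, adjusted p = 0.00551), with HT-DNA+AOA at 208, 244 and 271, and with HT-DNA+AOA+Asp at 191, 192 and 195, below all libraries of both (-0.32 ± 0.083, adjusted p = 0.00389 against HT-DNA+AOA). The changes of Vdac3 were larger with the GC and length correction, 0.56, adjusted p = 0.00759, with AOA, -0.62, adjusted p = 0.00410, with aspartate added and 0.56, adjusted p = 0.00896, with HT-DNA, and HT-DNA+AOA+Asp was called lower than HT-DNA (-0.49, adjusted p = 0.0230). These corrected values rest on the longer transcript named above, and how they change with the principal transcript was not tested. A pseudogene, Vdac3-ps1, shares 13.03% of the 31-base sequences of Vdac3, and 9 of its 18 values were not whole numbers.

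As shares of VDAC mRNA per length, Vdac1 held 47.2 ± 0.550% in Mock, Vdac2 28.0 ± 0.485% and Vdac3 24.8 ± 0.167%. With AOA the Vdac3 share was 27.3% to 29.0%, against 24.7% to 25.0% in Mock. With HT-DNA+AOA it was 29.5% to 30.2% while that of Vdac1 was 41.9% to 44.3%, against 47.3% to 48.8% with HT-DNA. Those ranges do not overlap. The Vdac3 share was 25.8% to 26.7% with AOA+Asp and 25.6% to 25.9% with HT-DNA+AOA+Asp, which overlapped the 24.2% to 25.9% of HT-DNA. The shares were not tested.

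Ppif, which encodes the cyclophilin of the permeability transition pore, had the largest rise with HT-DNA, 1.61-fold, from 117, 120.2 and 118 CPM in Mock to 192.5, 180.2 and 199.6 (0.69 ± 0.078, adjusted p = 3.63e-06). AOA alone left it at 122, 127 and 127 CPM (0.082 ± 0.078, adjusted p = 0.417) and AOA+Asp at 102.5, 112 and 97.99, below all AOA libraries (-0.26 ± 0.078, adjusted p = 0.0104, and -0.16, adjusted p = 0.0343, with the GC and length correction). With HT-DNA+AOA it was at 133.5, 141 and 171 CPM, between Mock and HT-DNA without overlapping either (-0.36 ± 0.078, adjusted p = 0.000833). With HT-DNA+AOA+Asp it was at 124, 125 and 125, again lower (-0.25 ± 0.078, adjusted p = 0.0124), although that call was lost with library totals (adjusted p = 0.0575), when only the libraries compared were fitted (0.0940) and without replicate 3 of HT-DNA+AOA, at -0.14, adjusted p = 0.0849. All HT-DNA+AOA+Asp libraries lay below those of HT-DNA+AOA, so Ppif showed no return toward its HT-DNA level. Whether aspartate lowered Ppif further depended on these settings. Ppifos, an antisense gene, shares 16.9% of its 31-base sequences, and whether the counting used strand is not given in the sources used here. Its upstream window is chr14:25693920-25694153 on the plus strand (GRCm38.p6, 234 bases up to the first annotated exon), shown with the same motifs in capitals because no other gene of the 10 rose as much.
Ppif: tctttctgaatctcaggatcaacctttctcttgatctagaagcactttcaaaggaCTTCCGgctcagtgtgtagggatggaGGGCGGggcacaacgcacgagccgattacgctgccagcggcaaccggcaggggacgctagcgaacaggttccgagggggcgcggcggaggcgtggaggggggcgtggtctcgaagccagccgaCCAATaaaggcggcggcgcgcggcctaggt
It holds CGGAAG and GGGCGG, as Mcl1 does, and CCAAT, found in 33.8% of all windows.

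The genes of mitochondrial RNA decay parted from each other. Pnpt1, the exoribonuclease, is also known as an interferon-inducible gene. It was at 55.1, 57.8 and 60.8 CPM in Mock, 49.7, 47.4 and 60.3 with AOA and 71.3, 69.9 and 60.8 with AOA+Asp. AOA overlapped Mock (-0.14 ± 0.090, adjusted p = 0.205), and AOA+Asp was above all AOA libraries (0.36 ± 0.090, adjusted p = 0.00296, but 0.088, adjusted p = 0.337, with the GC and length correction). HT-DNA brought it to 72.0, 78.8 and 76.3 CPM (0.39 ± 0.089, adjusted p = 0.00181), HT-DNA+AOA to 74.0, 69.6 and 66.1 and HT-DNA+AOA+Asp to 71.6, 68.7 and 78.2. The 3 HT-DNA groups overlapped in part and none differed from another by the test with TMM scaling alone. Pnpt1 was, with the GC and length correction, called lower than in HT-DNA both with HT-DNA+AOA (-0.27, adjusted p = 0.004) and with HT-DNA+AOA+Asp (-0.34, adjusted p = 0.000986). HT-DNA+AOA was above AOA in every library (0.42 ± 0.090, adjusted p = 0.00416), which held whichever library was left out but not when only the libraries compared were fitted (0.43, adjusted p = 0.131), and Pnpt1 was the gene of the 10 whose HT-DNA effect differed least with AOA, by 0.028 ± 0.13 (-0.24, adjusted p = 0.112, with the GC and length correction).

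The Pnpt1 window is shown for this rise, chr11:29130494-29130743 on the plus strand (GRCm38.p6), with capitals as above.
Pnpt1: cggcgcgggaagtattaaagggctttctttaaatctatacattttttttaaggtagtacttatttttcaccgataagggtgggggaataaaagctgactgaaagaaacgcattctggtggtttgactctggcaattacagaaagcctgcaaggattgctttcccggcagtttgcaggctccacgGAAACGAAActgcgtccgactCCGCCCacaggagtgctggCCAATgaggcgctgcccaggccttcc
The GAAA pair with 1 base between lies 66 bases before the start, followed by GGGCGG on the other strand and CCAAT. Bcl2l1 and Pnpt1 are the only 2 genes of the 8 with that pair in their windows. A match shows these letters and not that a factor binds there.

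Supv3l1, the helicase that works with PNPase, rose with AOA and returned with aspartate. It was at 37.9, 35.8 and 35.8 CPM in Mock, 49.2, 52.3 and 47.5 with AOA (0.44 ± 0.073, adjusted p = 7.44e-05) and 37.9, 40.4 and 34.6 with AOA+Asp (-0.40 ± 0.073, adjusted p = 0.000217). AOA was above every library of both, which overlapped each other. With HT-DNA it was at 40.7, 45.6 and 42.5 CPM (0.23 ± 0.073, adjusted p = 0.0134), with HT-DNA+AOA at 50.6, 50.4 and 53.7 (0.26 ± 0.073, adjusted p = 0.00617) and with HT-DNA+AOA+Asp at 45.3, 44.2 and 41.5 (-0.24 ± 0.073, adjusted p = 0.0113). It was the 1 gene of the 10 called higher with AOA both with and without HT-DNA. With HT-DNA the call for AOA was lost when only the libraries compared were fitted (adjusted p = 0.0668) and with no filter on low counts (0.0532), and the call for aspartate was lost in both (0.0708 and 0.0778) and with library totals (0.0894). 4930507D05Rik overlaps it on the opposite strand and 13 of its 18 values were not whole numbers.

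**Figure D3:**
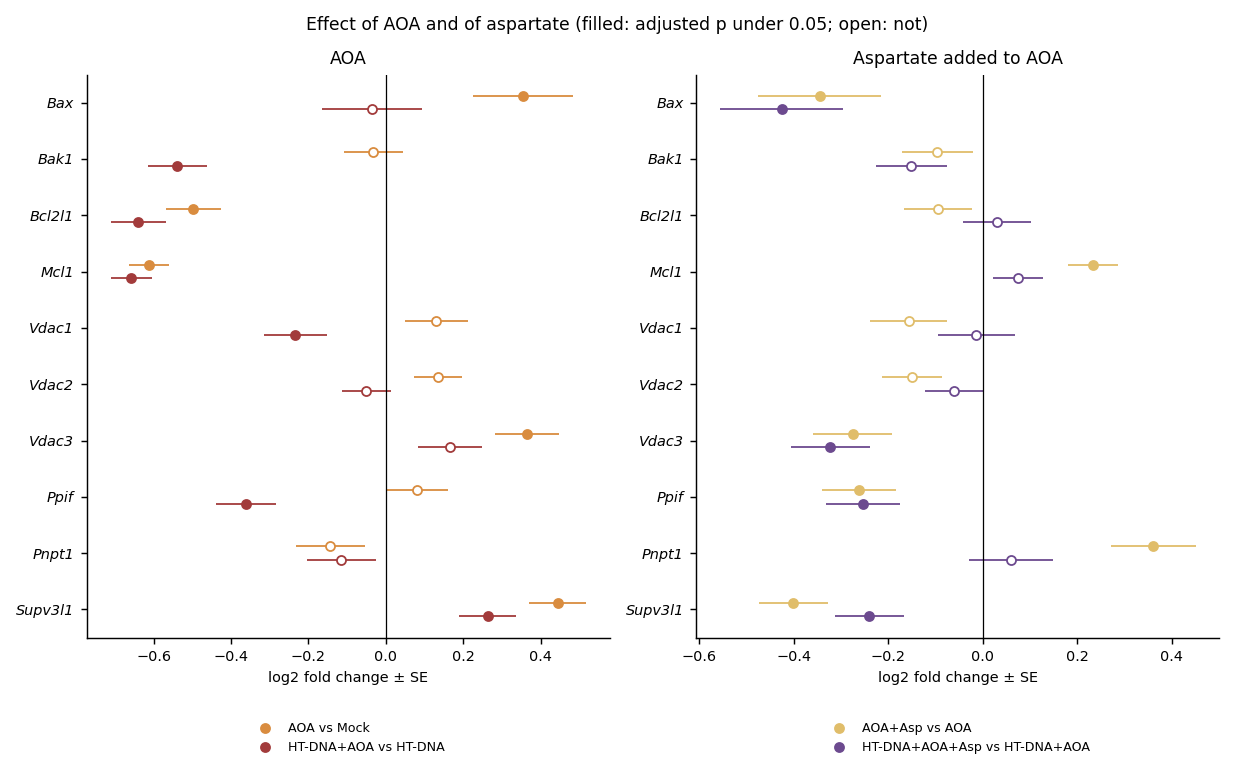
Log2 fold changes with their SE for AOA (left) and for aspartate added to AOA (right), without HT-DNA and with it, filled where adjusted p was under 0.05. Mcl1 and Bcl2l1 fall with AOA in both settings (-0.61 and -0.66 for Mcl1), Supv3l1 rises in both, and Bak1, Vdac1 and Ppif are called lower with AOA among cells with HT-DNA and not among those without.

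Whether AOA changed the response to HT-DNA was tested as an interaction, the difference of the HT-DNA effect with AOA from that without it. Bak1 (-0.51 ± 0.11, adjusted p = 0.00517), Ppif (-0.44 ± 0.11, adjusted p = 0.0133) and Vdac1 (-0.36 ± 0.12, adjusted p = 0.0398) responded less with AOA, 3 of 10 against 8.26% of all genes called lower. The calls of Bak1 and Ppif held whichever library was left out (adjusted p up to 0.0180 and 0.0407). The interaction of Bak1 with that correction for GC and length was -0.25, adjusted p = 0.00516. The effect of HT-DNA on Bak1 was 0.63 without AOA and 0.12 ± 0.076 with it, and on Ppif 0.69 and 0.25, where the latter call was lost when any of 5 of the 6 libraries was left out (adjusted p up to 0.185). The call of Vdac1 was lost when any of 10 of the 12 libraries was left out (adjusted p up to 0.0975) and with library totals (0.0636). That call was also lost with RLE factors in place of TMM (0.0534) and when only the libraries compared were fitted (0.095). Without replicate 3 of HT-DNA+AOA 6 genes were called, with Bax at -0.64, adjusted p = 0.000334. Bax was at -0.39, adjusted p = 0.149, with all libraries and at 0.038, adjusted p = 0.738, with the GC and length correction. With all libraries Bcl2l1 (-0.14 ± 0.10, adjusted p = 0.337) and Mcl1 (-0.045 ± 0.074, adjusted p = 0.700) were not called, so their fall with AOA was not shown to depend on HT-DNA. Without replicate 3 of HT-DNA+AOA, Bcl2l1 was called (-0.23, adjusted p = 0.0353) and Mcl1 was not (-0.043, adjusted p = 0.674).

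The same test for aspartate, its effect on AOA-treated cells with HT-DNA less that without, called none of the 10 by edgeR, against 1.05% of all genes. Mcl1 (-0.16 ± 0.074, adjusted p = 0.462) and Pnpt1 (-0.30 ± 0.13, adjusted p = 0.378) had an unadjusted p under 0.05 (0.0454 and 0.0278), and DESeq2 called 1, Mcl1. A further interaction, added after the values were seen, compared the HT-DNA effect with AOA and aspartate to that in Mock. Bak1 (-0.56 ± 0.11, adjusted p = 0.00856) and Ppif (-0.43 ± 0.11, adjusted p = 0.0315) responded less, 2 of 10 against 3.01% of all genes called lower (with the GC and length correction Bak1 was at -0.31, adjusted p = 0.00276), so both genes called here were also called for AOA without aspartate. Other settings called more genes. Mcl1 was called with DESeq2 (-0.20, adjusted p = 0.00324) and with the GC and length correction (-0.31, adjusted p = 0.00233). Under that correction Bcl2l1 (0.20, adjusted p = 0.0314) and Pnpt1 (-0.40, adjusted p = 0.016) were called as well. When only the libraries compared were fitted, 7 were called. The call of Ppif was lost when any of 9 of the 12 libraries was left out (adjusted p up to 0.107).

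**Figure D4:**
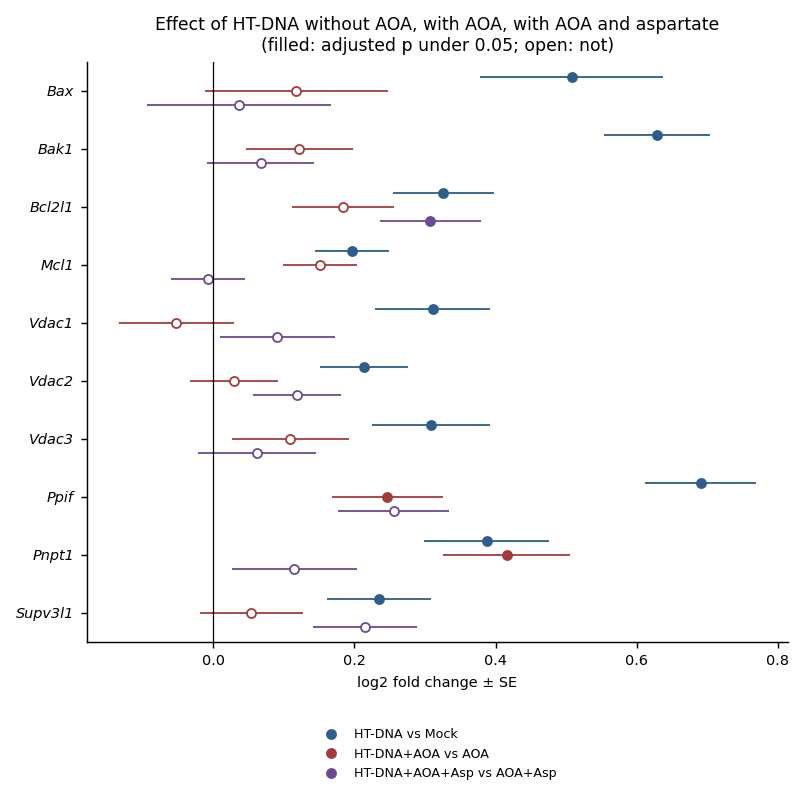
Log2 fold changes with their SE for HT-DNA in cells without AOA, with AOA, and with AOA and aspartate, filled where adjusted p was under 0.05. All 10 genes lie right of 0 without AOA, up to 0.69 for Ppif, while with AOA only Ppif and Pnpt1 are called.

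The correlation of log2 CPM over the 18 libraries was highest between Bak1 and Ppif, at 0.94, followed by Bcl2l1 with Mcl1 at 0.89. Supv3l1 went with Vdac3 (0.80) and against Mcl1 (-0.51). The points share their treatment groups and libraries, so these values are descriptions. For Bcl2l1 and Ppif, the pair with the widest spans, the tested genes most alike were Ccnd3 (0.96), Dact3 (0.96) and P2ry2 (0.96) for Bcl2l1, and Mybl2 (0.98), Tmem97 (0.98) and Ptpn1 (0.98) for Ppif.

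Of 59 further genes of these pathways, in 5 lists, 54 were tested. Bcl2a1b, Bcl2l10, Pmaip1, Bik and Hrk had too few counts. Values of the 54 are given with TMM scaling alone, here and in the paragraphs below. How they change with the GC and length correction, library totals or a library left out is not reported here. With AOA 19 of the 54 rose and 8 fell, where 45.7% of all genes were called. The largest rises were in Oma1, the stress-activated protease of the inner membrane (1.52 ± 0.15, adjusted p = 2.27e-07), and Endog, the endonuclease G of the intermembrane space (0.71 ± 0.17, adjusted p = 0.00176). Apaf1 (-1.16 ± 0.12, adjusted p = 2.88e-07) and Casp9 (-0.89 ± 0.13, adjusted p = 1.71e-05), the core of the apoptosome, fell most. Adding aspartate raised 9 and lowered 19 (all genes, 46.3% called), with Apaf1 (1.10 ± 0.12, adjusted p = 6.66e-07) up and Bbc3, the BH3-only protein PUMA (-1.19 ± 0.21, adjusted p = 0.000146), and Endog (-1.02 ± 0.17, adjusted p = 9.29e-05) down. In AOA+Asp against Mock, where 6.47% of all genes were called, 1 was higher, Trmt10c (0.34 ± 0.086, adjusted p = 0.0209), and 4 were lower, all of the BCL2 family, Bbc3 (-0.96 ± 0.21, adjusted p = 0.00852) and Bcl2l11 (-0.44 ± 0.099, adjusted p = 0.0102) most.

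With HT-DNA 22 of the 54 rose and 13 fell, where 48.2% of all genes were called and 24.2% were called higher. In the list of mitochondrial RNA processing and decay 9 of 16 rose and 2 fell, and in that of released proteins and caspases 4 of 10 rose and 4 fell. Endog (0.96 ± 0.16, adjusted p = 0.000163) and Bok, a relative of BAX and BAK (0.88 ± 0.14, adjusted p = 7.12e-05), rose most, while Apaf1 (-1.10 ± 0.12, adjusted p = 1.86e-06) and Xiap, an inhibitor of caspases (-0.74 ± 0.15, adjusted p = 0.000837), fell most. AOA added to HT-DNA raised 13 and lowered 9 (all genes, 45.4% called). Oma1 (1.08 ± 0.15, adjusted p = 1.08e-05) and Mcu, the calcium uniporter (0.65 ± 0.069, adjusted p = 3.60e-07), rose, and Casp9 (-1.21 ± 0.13, adjusted p = 5.01e-07) and Bok (-0.70 ± 0.14, adjusted p = 0.000322) fell. Aspartate on top raised 8 and lowered 21 (all genes, 47.7% called), with Apaf1 (1.22 ± 0.12, adjusted p = 2.85e-07) and Casp9 (0.71 ± 0.13, adjusted p = 0.000292) up and Bbc3 (-1.05 ± 0.20, adjusted p = 0.000323) and Endog (-0.94 ± 0.16, adjusted p = 0.000129) down.

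In HT-DNA+AOA+Asp against HT-DNA, 12 were higher and 20 lower (all genes, 46.6% called), led by Dnm1l (0.73 ± 0.14, adjusted p = 0.000685) and Xiap (0.64 ± 0.15, adjusted p = 0.00270) up and Bok (-1.0 ± 0.14, adjusted p = 3.61e-05) and Endog (-0.84 ± 0.16, adjusted p = 0.000628) down. HT-DNA+AOA against AOA gave 7 higher and 3 lower (all genes, 13.4% called), with Trmt10c (0.62 ± 0.087, adjusted p = 5.36e-05) up and Apaf1 (-0.54 ± 0.13, adjusted p = 0.00762) and Mcu (-0.29 ± 0.068, adjusted p = 0.00756) down. HT-DNA+AOA+Asp against AOA+Asp gave Hk2 (0.48 ± 0.087, adjusted p = 0.00256) up and Apaf1 (-0.42 ± 0.11, adjusted p = 0.0453) down, where 3.45% of all genes were called. The interaction with AOA was positive for 5 and negative for 4 (all genes, 15.5% called), with Xiap (0.66 ± 0.22, adjusted p = 0.0468) among the positive and Bok (-0.69 ± 0.20, adjusted p = 0.0239) and Elac2 (-0.51 ± 0.11, adjusted p = 0.00499) lowest. In the interaction with AOA and aspartate together, where 6.25% of all genes were called, 1 was higher, Apaf1 (0.68 ± 0.16, adjusted p = 0.0260), and 4 were lower, Bok (-0.68 ± 0.20, adjusted p = 0.0450) and Trmt10c (-0.48 ± 0.12, adjusted p = 0.0317) most.

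**Figure D5:**
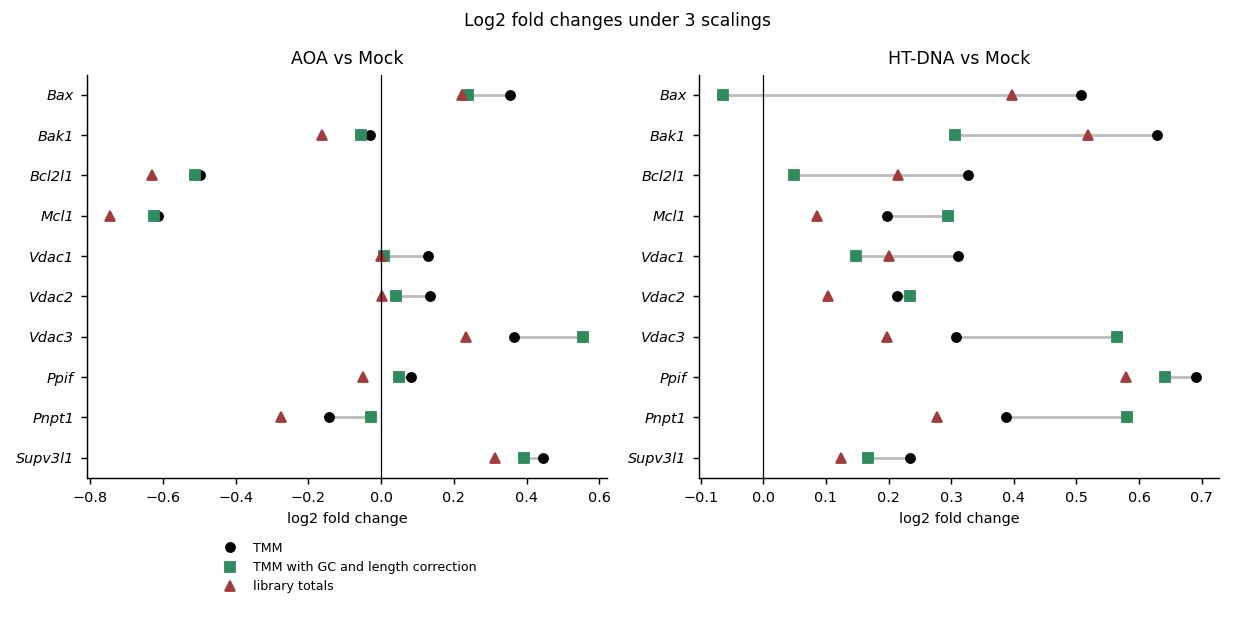
Log2 fold changes of the 10 genes for AOA and HT-DNA against Mock with TMM scaling, with TMM and a correction for GC content and length, and with library totals. Library totals shift all genes toward lower values, and the correction takes Bax from 0.51 to -0.065 with HT-DNA while it leaves Mcl1 and Bcl2l1 nearly in place with AOA.

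The 13 mitochondrially encoded mRNAs together took 2.67% to 2.885% of a library's counts in Mock, 2.715% to 2.95% with AOA and 3.21% to 3.43% with AOA+Asp. With HT-DNA they took 2.54% to 2.997%, with HT-DNA+AOA 2.80% to 2.93% and with HT-DNA+AOA+Asp 3.07% to 3.13%. By this measure AOA and HT-DNA+AOA overlapped Mock, and both groups with aspartate lay above it. Single mRNAs within the sum moved in both directions with AOA. By group mean, mt-Nd1 was at 4237 CPM in Mock and 2527 with AOA, and mt-Co1 at 9675 and 12730. Of the TMM-scaled library size the summed share was 2.53% to 2.74% in Mock, 2.805% to 3.07% with AOA and 2.975% to 3.05% with HT-DNA+AOA, which did not overlap Mock. The part of this in the levels of the 10 genes was not tested.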

How the data were processed

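Bulk RNA-seq of 18 L929 cultures was analysed. The authors deposited 1 matrix of estimated counts per gene, of which 11.56% were not whole numbers; its 6 columns of group means and its annotation were not used. The aligner, counter, strand setting, genome build and annotation are not given in the sources used here. The design had foreseen whole counts, so expected counts were rounded. Genes were filtered with filterByExpr (minimum count 10, minimum total 15), scaled by TMM and fitted over all 6 groups with edgeR 4.0.16 (robust quasi-likelihood test, R 4.3.3), with Benjamini-Hochberg adjustment over 14263 genes and a threshold of 0.05. Interactions were contrasts of the same fit. Each library held 17901605 to 24057343 counts. P-values rest on the spread between cultures, 3 per group, pooled over all 6 groups. They do not measure the spread within the compared groups alone, which was largest in HT-DNA+AOA.

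Levels per kilobase, GC content (loess, span 0.3; available for 97.52% of tested genes) and shared 31-base sequences came from GENCODE transcripts of GRCm38, which may differ from the authors' annotation. The GC and length correction used the longest transcript of each gene, and levels per kilobase the principal one (4174 and 1354 bases for Vdac3). Promoter windows came from RefSeq (GRCm38.p6).

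The 10 genes and the pathway lists were chosen with earlier results of these data known. Named were all 10 genes, the 2 called pathway genes that rose most and the 2 that fell most in each comparison, and the 3 genes closest in correlation to the 2 of the 10 genes with the widest span; some results that this rule takes are not reported here. The fit was checked on simulated data. Alternatives were DESeq2 1.42.0, RLE factors, library totals, a stricter and no count filter, fits of only the libraries compared, a replicate block, the GC and length correction, and leaving out each library. The AOA+Asp x HT-DNA interaction was added after the values were seen.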

Additional observations from a re-analysis of the deposited data

Results flagged for a closer look

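The effect of HT-DNA on some of these genes differed with AOA by a test of the difference itself (interaction contrast, edgeR quasi-likelihood test with Benjamini-Hochberg adjustment). For AOA x HT-DNA these were Bak1 (-0.51 ± 0.11, adjusted p = 0.00517), Vdac1 (-0.36 ± 0.12, adjusted p = 0.0398) and Ppif (-0.44 ± 0.11, adjusted p = 0.0133). For AOA with aspartate against Mock they were Bak1 (-0.56 ± 0.11, adjusted p = 0.00856) and Ppif (-0.43 ± 0.11, adjusted p = 0.0315). Negative values mean a smaller effect of HT-DNA in the treated cells. The calls of Vdac1 and of Ppif with aspartate were lost in most fits that left out a library. The contrast with aspartate was added after the values were seen. Groups of 3 are too small for the search for single outlying libraries.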

How the results depend on the processing

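The cause of the changes below was not tested. An x marks an interaction with HT-DNA. With DESeq2's Wald test, calls among the 10 genes were 4 in HT-DNA+AOA vs AOA (from 2), 2 in HT-DNA+AOA+Asp vs AOA+Asp (from 1) and 1 in Asp x HT-DNA (from 0). With DESeq2's Wald test, calls over all genes were 322 in Asp x HT-DNA (from 150) and 1906 in AOA+Asp x HT-DNA (from 891). With DESeq2's Wald test, these log2 fold changes changed sign: in Asp x HT-DNA Ppif -0.0054. With RLE factors, these log2 fold changes changed sign: in Asp x HT-DNA Ppif -0.0058. With library totals in place of TMM, these log2 fold changes changed sign: in AOA vs Mock Vdac1 -0.0015 and Ppif -0.050, in AOA+Asp vs Mock Bax -0.036 and Supv3l1 -0.0040, in HT-DNA+AOA+Asp vs HT-DNA+AOA Vdac1 0.082 and Vdac2 0.032, in AOA x HT-DNA Mcl1 0.048, in AOA+Asp x HT-DNA Bcl2l1 0.080, Vdac2 0.0032 and Supv3l1 0.079. With at least 10 counts in every library, these log2 fold changes changed sign: in Asp x HT-DNA Ppif -0.0016. With no filter on low counts, calls among the 10 genes were 1 in HT-DNA+AOA vs AOA (from 2). With no filter on low counts, calls over all genes were 303 in Asp x HT-DNA (from 150) and 2192 in AOA+Asp x HT-DNA (from 891). With only the libraries compared, calls among the 10 genes were 4 in AOA+Asp vs Mock (from 2), 1 in HT-DNA+AOA+Asp vs HT-DNA+AOA (from 4), 0 in HT-DNA+AOA vs AOA (from 2), 3 in HT-DNA+AOA+Asp vs AOA+Asp (from 1) and 7 in AOA+Asp x HT-DNA (from 2). With only the libraries compared, calls over all genes were 2462 in AOA+Asp vs Mock (from 923), 4167 in HT-DNA+AOA vs HT-DNA (from 6477), 4278 in HT-DNA+AOA+Asp vs HT-DNA+AOA (from 6797), 394 in HT-DNA+AOA vs AOA (from 1917), 1896 in HT-DNA+AOA+Asp vs AOA+Asp (from 492), 1019 in AOA x HT-DNA (from 2209), 66 in Asp x HT-DNA (from 150) and 4409 in AOA+Asp x HT-DNA (from 891). With only the libraries compared, these log2 fold changes changed sign: in Asp x HT-DNA Ppif -0.016. With the GC and length correction, calls among the 10 genes were 4 in HT-DNA+AOA vs AOA (from 2), 2 in HT-DNA+AOA+Asp vs AOA+Asp (from 1) and 5 in AOA+Asp x HT-DNA (from 2). With the GC and length correction, calls over all genes were 1647 in AOA+Asp vs Mock (from 923), 2883 in HT-DNA+AOA vs AOA (from 1917), 1238 in HT-DNA+AOA+Asp vs AOA+Asp (from 492), 399 in Asp x HT-DNA (from 150) and 1547 in AOA+Asp x HT-DNA (from 891). With the GC and length correction, these log2 fold changes changed sign: in AOA+Asp vs AOA Bak1 0.051, Bcl2l1 0.034 and Vdac1 0.0072, in AOA+Asp vs Mock Vdac1 0.016 and Vdac3 -0.061, in HT-DNA vs Mock Bax -0.065, in HT-DNA+AOA vs HT-DNA Bax 0.28, in HT-DNA+AOA+Asp vs HT-DNA+AOA Vdac1 0.14, Vdac2 0.019 and Pnpt1 -0.075, in HT-DNA+AOA+Asp vs HT-DNA Bax 0.18, in HT-DNA+AOA vs AOA Bax -0.027 and Vdac2 -0.026, in HT-DNA+AOA+Asp vs AOA+Asp Bax -0.043 and Bak1 -0.0037, in AOA x HT-DNA Bax 0.038, Bcl2l1 0.082 and Pnpt1 -0.24, in Asp x HT-DNA Vdac3 0.066 and Ppif -0.052, in AOA+Asp x HT-DNA Bax 0.022 and Bcl2l1 0.20. With 1 library left out in turn, calls among the 10 genes ran from 1 to 2 in AOA+Asp x HT-DNA, 1 to 6 in HT-DNA+AOA vs AOA, 0 to 1 in HT-DNA+AOA+Asp vs AOA+Asp, 3 to 6 in AOA+Asp vs AOA, 2 to 5 in HT-DNA+AOA+Asp vs HT-DNA+AOA and 2 to 6 in AOA x HT-DNA. Over all genes they ran from 359 to 724 in AOA+Asp vs Mock (from 923), 1145 to 5420 in AOA x HT-DNA (from 2209), 129 to 1085 in AOA+Asp x HT-DNA (from 891), 1078 to 4157 in HT-DNA+AOA vs AOA (from 1917), 69 to 416 in Asp x HT-DNA (from 150) and 232 to 418 in HT-DNA+AOA+Asp vs AOA+Asp (from 492). Log2 fold changes that changed sign in such fits ran, in AOA+Asp vs Mock, for Bax -0.059 to 0.064, Vdac2 -0.032 to 0.0082 and Supv3l1 -0.010 to 0.10, in AOA x HT-DNA, for Pnpt1 -0.042 to 0.14, in HT-DNA+AOA+Asp vs AOA+Asp, for Bax -0.0081 to 0.11 and Mcl1 -0.023 to 0.0066, in Asp x HT-DNA, for Ppif -0.060 to 0.12, Bax -0.23 to 0.17, Bak1 -0.14 to 0.046 and Vdac3 -0.14 to 0.046, in AOA+Asp x HT-DNA, for Bcl2l1 -0.060 to 0.024 and Supv3l1 -0.076 to 0.033, in HT-DNA+AOA+Asp vs HT-DNA, for Supv3l1 -0.014 to 0.059, in HT-DNA+AOA vs HT-DNA, for Bax -0.28 to 0.11 and Vdac2 -0.091 to 0.0079, in HT-DNA+AOA+Asp vs HT-DNA+AOA, for Bcl2l1 -0.028 to 0.12 and Vdac1 -0.12 to 0.091, in HT-DNA+AOA vs AOA, for Vdac1 -0.16 to 0.052, Vdac2 -0.0047 to 0.087 and Bax -0.13 to 0.27.

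Over all groups the replicate numbers did not show a common pairing: of 45 correlations between libraries of the same number 13 exceeded 0.1 (median 0.015), although all 3 did between AOA and HT-DNA+AOA (0.11 to 0.42), and 10 of 18 libraries correlated best with their own number, a hint from the data and not from the design. With the number as a replicate block, none of 120 calls of the 10 genes changed, HT-DNA+AOA vs AOA included, and all 10 stayed called for HT-DNA vs Mock.

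Single libraries decided some counts among the 10 genes. Without replicate 3 of HT-DNA+AOA, 6 were called in AOA x HT-DNA and 2 in HT-DNA+AOA+Asp vs HT-DNA+AOA, without replicate 1 of HT-DNA+AOA 6 were called in HT-DNA+AOA vs AOA, and without replicate 3 of AOA+Asp 3 were called in AOA+Asp vs AOA. Each of the 10 genes had at least 754 counts in every library.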
